A study of Mus musculus with 8 samples.

Results

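Transcription factors that set the identity of retinal neurons were followed through a knockdown of the long noncoding RNA MM2P in mouse retina. The set holds 9 genes, all found by symbol among the 57010 genes of the deposited table: the photoreceptor factors Otx2, Crx, Nrl, Nr2e3 and Neurod1, the bipolar cell factor Vsx1, the general retinal factor Pax6, and the neuronal repressors Scrt1 and Scrt2. The list was drawn up with results of this comparison known, and Scrt2 entered it because it stood among the genes with the smallest p-values that were lower in the knockdown without passing the test. The fold changes of the 9 genes are therefore given as descriptions, without p-values. Counts of members that passed a threshold are given beside the share of all tested genes, and nothing is read from them. Every library was made from retina of C57BL/6J mice aged 17 days. All mice had oxygen-induced retinopathy (OIR), in which high oxygen prunes the capillaries of the young retina and abnormal vessels grow once the animals are back in room air. The control group (n = 4) had received a control scAAV, a self-complementary adeno-associated virus used for gene delivery, and the knockdown group (n = 4) an scAAV directed against lncRNA-MM2P. The treatment label of the second group reads AAV KO, whereas the series describes a knockdown. The sources used here do not give the virus serotype, its promoter, the route and age of injection or the cells it reached, and retinas without retinopathy or without virus were not analysed here.

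In the developing retina, homeodomain, basic helix-loop-helix, leucine zipper and nuclear receptor proteins act in sequence to turn progenitors into neurons, and many stay active in the mature cell to hold its identity. Otx2 starts the photoreceptor and bipolar programmes, Crx switches on photoreceptor genes with it, Nrl directs the rod fate, and Nr2e3 acts with Nrl to silence cone genes in rods. Scrt1 and Scrt2 belong to the Snail superfamily of zinc finger proteins, which bind E-box motifs in DNA and repress transcription in neurons.

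Scrt1 and Scrt2 are paralogs, so their coding sequences show how far reads of one could be taken for the other. The first 60 coding bases of each are printed 5′ to 3′ from the GENCODE M21 transcripts on GRCm38 whose lengths match the deposited gene lengths, and capitals mark bases that differ between them:
Scrt1: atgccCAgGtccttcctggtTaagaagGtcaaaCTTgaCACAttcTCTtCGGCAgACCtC
Scrt2: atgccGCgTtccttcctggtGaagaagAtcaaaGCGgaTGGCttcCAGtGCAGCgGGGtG
Of these 60 bases 36 were identical. Of the first 27, which encode the repressor motif at the start of Snail-family proteins, 23 were. Over the whole coding sequences, 707 of 895 aligned bases (79.0%) were identical, and the longest run shared by both was 38 bases, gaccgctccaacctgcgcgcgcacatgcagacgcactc, which starts at coding base 859 of Scrt1 and 769 of Scrt2. The transcripts shared 13 stretches of 31 bases, of 3448 such stretches in Scrt1 and 3328 in Scrt2. The sequenced reads were 150 bases long, far longer than the shared run. Otx2 and Crx, a second pair of relatives, had 67.9% identity over 842 aligned coding bases and shared 0 stretches of 31 bases.

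Promoters of 7 of the 9 genes were matched in RefSeq windows on GRCm38.p6, each running from 250 bases before to 50 after a start site. They were searched on both strands for TAATCC, the letters preferred by Otx2 and Crx, for CAGGTG, an E-box bound by Snail-family proteins, and for TGCTGA, part of the element bound by Maf-family proteins such as Nrl. The last 150 bases before the start site are shown for the 3 factors at the centre of the rod programme, read on the minus strand of each chromosome, with TAATCC and CAGGTG, or their reverse complements GGATTA and CACCTG, in capitals:
Crx (chr7:15879956-15880105): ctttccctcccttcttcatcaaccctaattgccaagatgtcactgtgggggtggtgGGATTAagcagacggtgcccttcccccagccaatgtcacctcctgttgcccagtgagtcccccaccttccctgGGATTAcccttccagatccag
Nrl (chr14:55524253-55524402): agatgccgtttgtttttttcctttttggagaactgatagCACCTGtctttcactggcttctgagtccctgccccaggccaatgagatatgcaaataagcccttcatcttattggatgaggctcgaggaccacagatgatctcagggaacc
Nr2e3 (chr9:59950080-59950229): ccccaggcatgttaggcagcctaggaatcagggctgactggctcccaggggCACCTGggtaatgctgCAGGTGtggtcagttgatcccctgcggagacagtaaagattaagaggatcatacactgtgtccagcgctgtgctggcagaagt
The Crx window held TAATCC at 2 places, the Nr2e3 window CAGGTG at 2 places and the Nrl window CAGGTG at 1 place. Over the 11 windows of the 7 genes, TAATCC was found in 2, CAGGTG in 2 and TGCTGA in 4, and none of the matches overlapped another. Among all 32851 promoter windows of 300 bases, 7.06% held TAATCC, 20.2% CAGGTG and 19.5% TGCTGA. These are matches of letters, not measured binding.

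Library totals ran from 16.03 to 21.4 M estimated counts (M, 1000000), lowest in knockdown 3, so that 3 counts corresponded to 0.140 to 0.187 CPM (counts per 1000000 counts of a library). The target RNA, listed as Mm2pr, was at 1, 1, 16.95 and 7.34 counts in the 4 controls, in order of replicate number, and at 0, 0, 2 and 20.61 counts in the 4 knockdown libraries, so it does not check the labels. Xist and the Y-linked Ddx3y were not split by group: Ddx3y was at 0 counts in 3 libraries (control 1, knockdown 1, knockdown 3) and between 814 and 1919 counts in the rest, and Xist was at 16 counts in control 3 and at 21026 or more in the rest. Lens transcripts were present in the knockdown libraries, where the 24 lens genes summed to 54.9 to 553 TPM (transcripts per 1000000, corrected for length), against 12.9 to 17.1 TPM in the controls. Of 10 genes of the corneal and conjunctival epithelium 4 had 0 counts in all libraries, and their sum stayed between 1.11 and 2.55 TPM. Markers of the retina itself were abundant in all 8 libraries, with the 26 rod genes summing to 57490 to 64012 TPM. Control 2, control 4, knockdown 2 and knockdown 4 held both Xist and Ddx3y, so a library may hold tissue of more than 1 animal. The labels do not say whether the replicates are separate animals, so p-values measure only the spread between these samples.

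The 9 factors covered a more than 100-fold range of level. TPM put Nrl first at 1554 ± 48.5 in the controls and 1525 ± 46.9 in the knockdown (SD, n = 4). Crx followed at 1141 ± 85.1 and 1126 ± 18.9 TPM, Nr2e3 at 828 ± 85.4 and 820 ± 58.2 TPM, and Neurod1 at 616 ± 18.1 and 612 ± 12.7 TPM. Otx2 stood at 345 ± 8.01 and 363 ± 6.39 TPM, and Pax6 at 296 ± 19.1 and 295 ± 37.3 TPM. A gap of 6.31-fold in mean level separated Pax6 from Scrt1, at 50.4 ± 4.25 and 43.4 ± 3.72 TPM. Vsx1, a gene of a subset of bipolar cells, had 28.4 ± 3.68 and 28.6 ± 1.37 TPM, and Scrt2 was lowest at 14.03 ± 0.743 and 10.1 ± 0.911 TPM. No neighbours in this order had overlapping ranges over the 8 libraries; Otx2, with a lowest value of 336 TPM, and Pax6, with a highest of 327 TPM, came closest. All 9 passed the filter of 1 TPM in at least 4 libraries, as did 16118 genes in all, and by mean TPM Nrl ranked 45 and Scrt2 9742 among these.

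**Figure D1:**
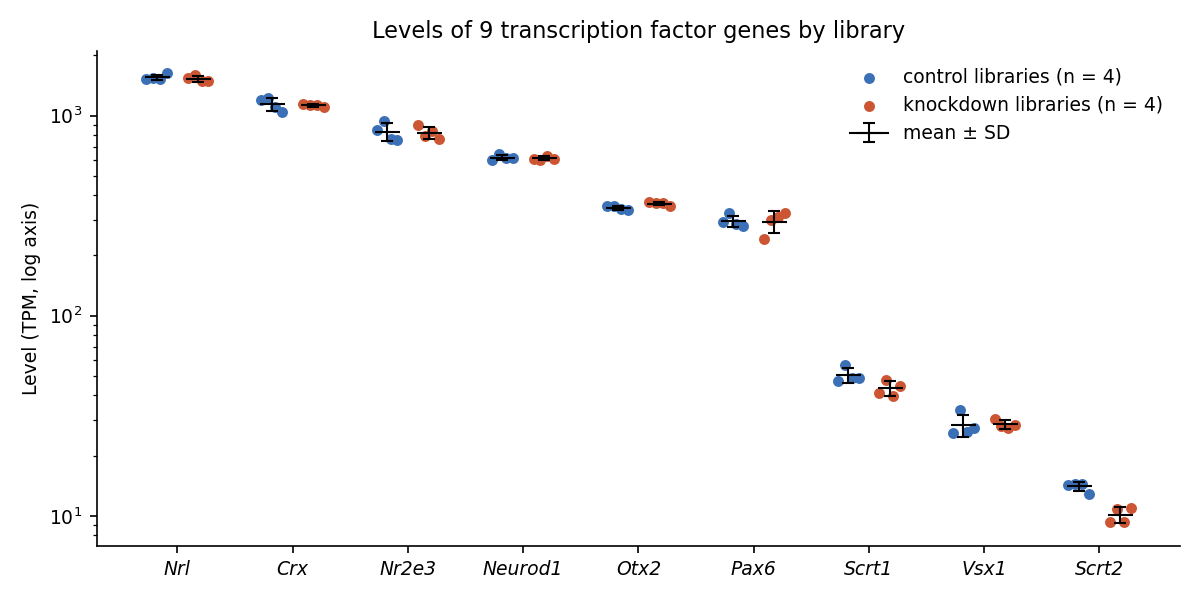
Level of each factor in each of the 8 libraries, in TPM on a log axis, with the genes ordered by mean level; points are libraries, and bars give the mean ± SD of 4. The order Nrl, Crx, Nr2e3, Neurod1, Otx2, Pax6, Scrt1, Vsx1, Scrt2 is the same in every library.

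The factors of the photoreceptor programme had nearly the same levels in both groups. Differences between groups are given in CPM, scaled by the TMM method, and as edgeR log2 fold changes of knockdown over control with their standard errors. Otx2, the homeodomain factor at the head of the programme, had 240.4, 237, 237 and 241 CPM in the controls, given here and below in order of replicate number, against 265, 251, 246 and 241 CPM in the knockdown. The knockdown values ran upward from the narrow control range, and knockdown 4 lay inside it (log2 fold change 0.07, SE 0.05). On the TPM scale the groups were just apart, with a highest control of 352 TPM and a lowest knockdown of 354 TPM. The share of all tested genes whose groups lie apart in TPM was not computed, so nothing is read from this gap. Crx, the Otx-family factor of rod and cone genes, had 1373, 1391, 1298 and 1257 CPM in the controls against 1386, 1315, 1284 and 1261 CPM in the knockdown. Both groups of Crx values spanned the same interval (-0.02, SE 0.05).

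Nrl, the leucine zipper factor that rods need, had 1531.5, 1514, 1556 and 1711 CPM in the controls against 1617, 1602, 1475 and 1482 CPM in the knockdown. Control 4 was highest, and the knockdown libraries fell on both sides of the other controls (log2 fold change -0.03, SE 0.06). For Nr2e3, the nuclear receptor that silences cone genes in rods, values were 694, 752, 633 and 649 CPM in the controls against 769, 648, 667 and 618 CPM in the knockdown. Knockdown 1 was the highest of all 8 and knockdown 4 the lowest (-0.01, SE 0.07). Neurod1, a basic helix-loop-helix factor that photoreceptors need for survival, varied least of the set over the 8 libraries, with an SD of 0.04 on the log2 scale. Its values were 652, 687, 681 and 702 CPM in the controls against 698, 662, 678 and 663 CPM in the knockdown (-0.01, SE 0.05).

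Within libraries, the proportions among Nrl, Crx, Nr2e3 and Neurod1 were alike in both groups. The TPM ratio of Nrl to Crx was 1.37 ± 0.141 in the controls and 1.35 ± 0.0341 in the knockdown (SD, n = 4), that of Nr2e3 to Nrl 0.534 ± 0.0637 and 0.538 ± 0.0401, and that of Neurod1 to Crx 0.542 ± 0.0386 and 0.544 ± 0.0141. Crx had 3.30 ± 0.172 times the TPM of Otx2 in the controls, ranging from 3.09 to 3.49. In the knockdown libraries this ratio was 3.10 ± 0.00299, from 3.098 to 3.104, at the low end of the control range. At 3966 to 4932 Otx2 counts a library, counting error alone is larger than this SD. The narrow spread therefore does not show a fixed proportion. Controls 1, 2 and 3 lay above all knockdown libraries, and control 4, at 3.091, lay below them.

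Vsx1 and Pax6, the factors of inner retinal neurons, showed no shared shift either. Vsx1 is a paired-like homeodomain factor of cone bipolar cells. It had 39.4, 50.4, 40.5 and 43.7 CPM in the controls against 48.9, 42.8, 41.0 and 43.0 CPM in the knockdown, with all 4 knockdown values inside the control range (log2 fold change 0.01, SE 0.08). Pax6, a paired-domain factor kept in mature amacrine and ganglion cells, had 305, 332, 305 and 307 CPM in the controls against 265, 317, 318 and 339 CPM in the knockdown. Its knockdown libraries enclosed the control range, with knockdown 1 lowest and knockdown 4 highest of all 8 (-0.01, SE 0.07). Without knockdown 1 the fold change of Pax6 was 0.06, and without knockdown 4 it was -0.06. The 18 amacrine genes summed to 1441 TPM in knockdown 1 and to 1706 to 1835 TPM in the other libraries, and the 18 ganglion cell genes to 1764 TPM in knockdown 1 and 2067 to 2279 TPM in the others. Their part in the low Pax6 value of that library was not tested. In bulk tissue, fewer cells of a type and less RNA per cell cannot be told apart.

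Scrt2, chosen from this comparison, was the 1 member whose groups did not overlap in CPM, against 3.31% of all tested genes in either direction. Its values were 19.4, 19.3, 20.1 and 18.4 CPM in the controls against 13.3, 14.7, 12.5 and 14.9 CPM in the knockdown. Every knockdown library lay below every control, with a gap of 18.4 to 14.9 CPM between the groups. The means were 19.3 ± 0.663 and 13.9 ± 1.16 CPM (SD, n = 4), a log2 fold change of -0.48 (SE 0.09), or 0.719 times the control level. The estimated counts behind these values ran from 374 to 425 in the controls and from 201 to 300 in the knockdown.

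Scrt1, the paralog, lay lower in the knockdown by a smaller amount. Scrt1 had 65.8, 77.5, 69.3 and 71.1 CPM in the controls against 60.4, 67.2, 54.3 and 62.1 CPM in the knockdown. Only knockdown 2 reached into the control range, where it exceeded control 1. The means were 70.9 ± 4.90 and 61.0 ± 5.30 CPM (log2 fold change -0.22, SE 0.07), or 0.861 times the control level. Knockdown 3, the library of lowest depth and highest lens content, was the lowest of all 8 for both genes in CPM. Without it the log2 fold changes were -0.43 for Scrt2 and -0.17 for Scrt1, and the part of lens content in the values was not tested. Without knockdown 1 and knockdown 3 together, the libraries lowest in Scrt2 CPM, they were -0.38 and -0.13, a setting chosen after seeing the data. On the TPM scale, Scrt1 had 3.59 ± 0.297 times the level of Scrt2 in the controls, from 3.32 to 3.93. In the knockdown it had 4.30 ± 0.173 times that level, from 4.07 to 4.45. Scrt2 was chosen as lower in this comparison, so the higher ratio carries no support of its own.

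**Figure D2:**
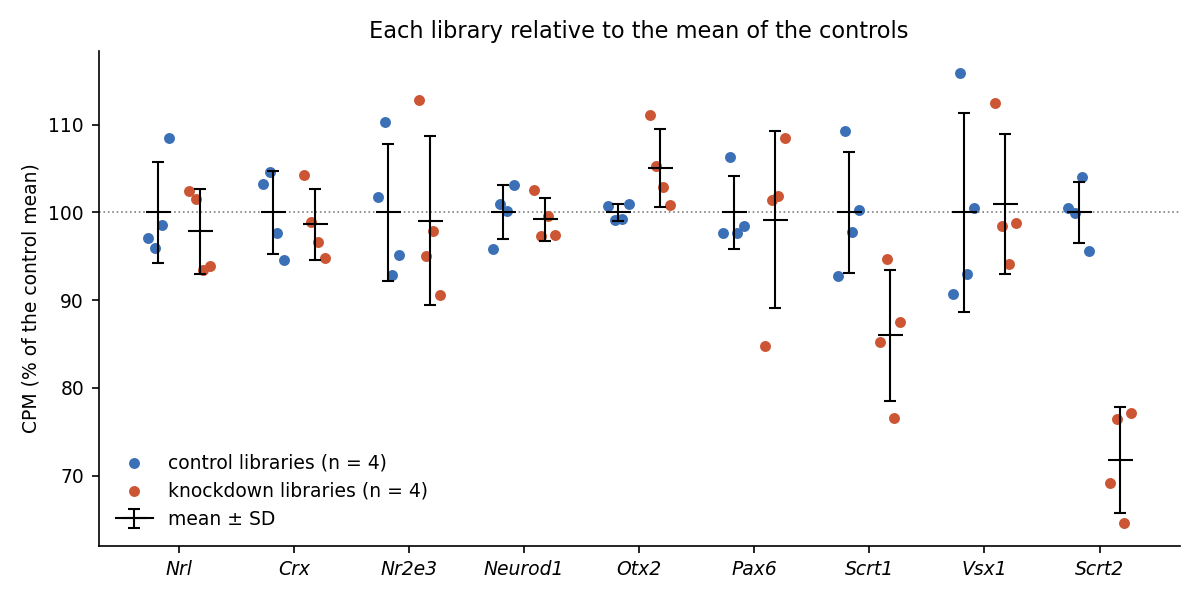
CPM of each factor in each library as a percentage of the mean of the 4 controls; points are libraries, and bars give the mean ± SD. The 4 knockdown values of Scrt2 lie below all controls, those of Scrt1 overlap them through knockdown 2, and for the other 7 genes the points of both groups lie on or near 100%, between 84.8% and 116%.

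**Figure D3:**
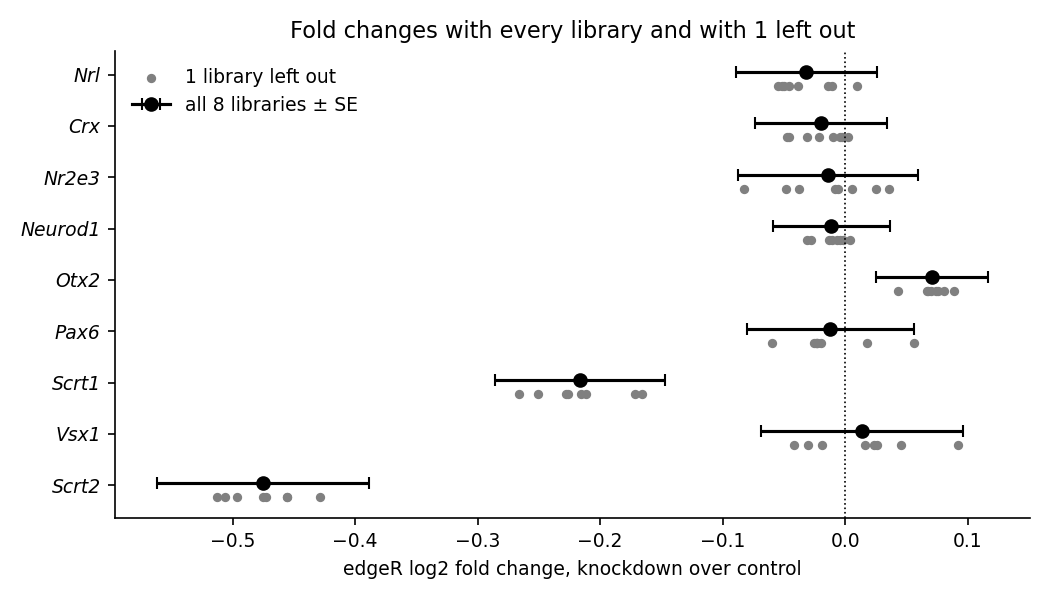
edgeR log2 fold change of each factor, knockdown over control, with all 8 libraries (black, ± SE) and with each library left out in turn (grey). Scrt2 stays between -0.51 and -0.43 and Scrt1 between -0.27 and -0.17, while the values of Nrl, Crx, Nr2e3, Neurod1, Pax6 and Vsx1 fall on both sides of 0.

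In edgeR, 0 of the 9 factors passed an adjusted p under 0.05, against 0.062% of the 16118 tested genes (0.0434% higher and 0.0186% lower). At an unadjusted p under 0.05 there were 2, Scrt1 and Scrt2, both lower. The shares of all tested genes were 5.27% in either direction and 2.66% for lower genes alone. DESeq2 called 1 factor, Scrt2, and 0.279% of tested genes. With no filter on low values edgeR also called Scrt2 alone of the 9, and 0.531% of the 29582 genes then tested, while limma on log2(TPM + 1) called 0. Groups did not overlap in CPM for 1 factor, Scrt2, which was lower. The shares of all tested genes were 3.31% in either direction and 1.71% for lower genes alone. Since Scrt2 was chosen from this comparison, nothing is read from these counts. The median log2 fold change of the 9 was -0.01, and that of all tested genes 0.00.

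The 5 genes whose course over the 8 libraries was most like that of Scrt2 were also lower in every knockdown library than in any control. Likeness was measured as the root mean square distance between centred log2(CPM + 0.5) values, over 11384 genes with a mean of at least 5 TPM and a conventional symbol. Slc17a6, the vesicular glutamate transporter gene of ganglion cells, was nearest (distance 0.07). It had 116, 109, 127 and 121 CPM in the controls against 80.7, 97.2, 78.04 and 91.6 CPM in the knockdown, with the order of the knockdown libraries differing from that of Scrt2. Next came Vegfb, a ligand of the vascular endothelial growth factor family (0.08), at 16.9 ± 0.683 and 13.3 ± 1.11 CPM, and Rasd2, a small GTPase gene of the nervous system (0.08), at 10.6 ± 0.958 and 7.56 ± 0.597 CPM. Rimkla, which encodes a synthetase of the neuronal dipeptide N-acetylaspartylglutamate, had 74.03 ± 0.867 and 60.3 ± 6.18 CPM, and the topoisomerase gene Top3a 10.5 ± 0.738 and 8.11 ± 1.04 CPM (distances 0.10 and 0.11). Genes near Scrt2 in this measure separate the groups because Scrt2 does, so the pattern carries no support of its own.

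**Figure D4:**
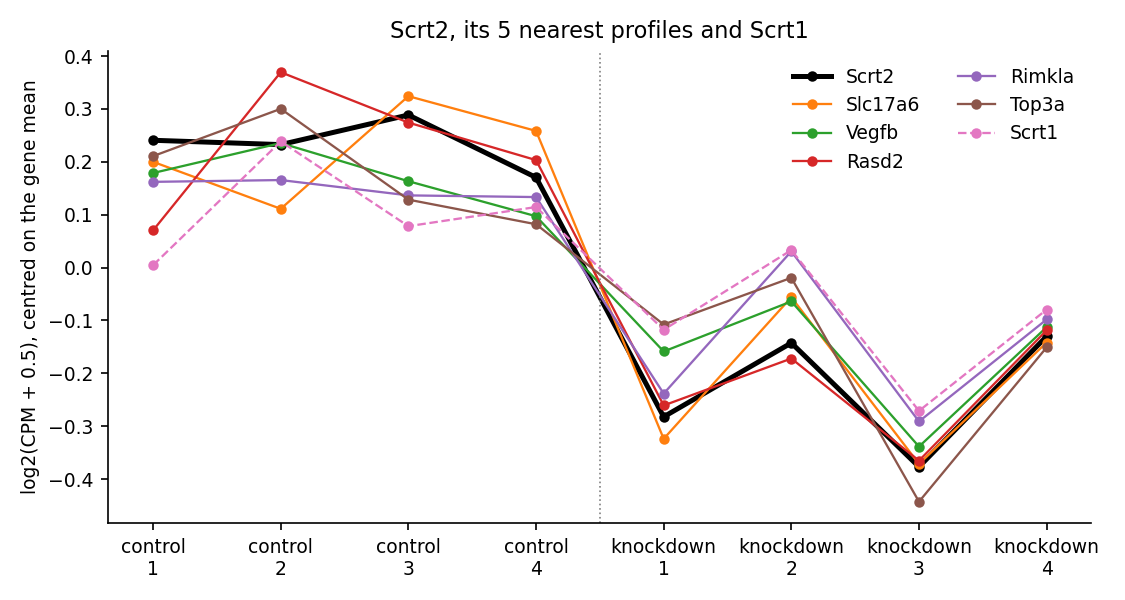
Centred log2(CPM + 0.5) of Scrt2 (thick black), its 5 nearest profiles and Scrt1 (dashed) in each library, with a dotted line between the groups. All 6 of the genes drawn with solid lines are lower in the 4 knockdown libraries than in the 4 controls, and knockdown 3 is the lowest library for each of the 7 genes.

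Each of the other factors had a nearest profile as well, at distances of 0.02 to 0.04,. These were Zfp821 for Otx2, Fam76a for Crx, the copper transporter gene Slc31a1 for Nrl, the magnesium transport gene Cnnm4 for Nr2e3, Kctd20 for Neurod1, Ttc39b for Pax6, the mitochondrial import gene Mtx1 for Vsx1 and Gdap2 for Scrt1. None of these 8 genes had groups that did not overlap.

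None of the 6 tested neighbours of Scrt2 on its chromosome passed the test. Scrt2 (ENSMUSG00000060257) lies on the plus strand of chromosome 2 at 152081529 to 152095802 in GRCm38. The nearest tested gene, Srxn1, which encodes an antioxidant enzyme 9.7 kb downstream, was at 64.4 ± 4.01 CPM in the controls against 59.3 ± 3.65 CPM in the knockdown, a log2 fold change of -0.12 (SE 0.06, edgeR adjusted p = 0.939). Beyond it, the casein kinase gene Csnk2a1 had 151 ± 7.99 and 158 ± 3.82 CPM, and Tbc1d20 59.5 ± 2.01 and 58.6 ± 4.18 CPM. On the other side, Fam110a had 17.8 ± 0.635 and 19.2 ± 1.84 CPM, and the riboflavin transporter gene Slc52a3 and Angpt4, an angiopoietin gene, had 1.05 to 1.27 CPM in both groups. All 6 had overlapping groups and edgeR adjusted p-values from 0.939 to 0.997. Scrt1 (ENSMUSG00000048385) is on chromosome 15, minus strand, at 76516203 to 76522499.

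Some members share bases with other genes, which limits how exactly their reads can be assigned. Neurod1 (chromosome 2, 79452521 to 79456751) lies inside the same-strand gene Cerkl, a retinal degeneration gene, and 201 of its 2729 exonic bases are shared. A further 154 are shared with the opposite-strand RNA Gm26755, which did not reach the filter. Cerkl had 45.2 ± 2.07 and 55.1 ± 4.52 CPM, and the knockdown values were all higher (edgeR adjusted p = 0.231). Otx2 (chromosome 14, 48657677 to 48673819) shares 154 of 4221 exonic bases with the opposite-strand RNA Otx2os1, at 22.3 ± 2.97 and 23.8 ± 1.11 CPM, and 168 with Gm49154 on its own strand, at 4.63 and 4.24 CPM. Nr2e3 shares 61 of 3369 with Gm15507, at 1.97 and 1.67 CPM. Crx, Nrl, Vsx1, Scrt1 and Scrt2 overlapped no other annotated gene. Whether the counting used strand is not given in the sources used here. Of the 5 opposite-strand RNAs matched by name near retinal factor genes, all were tested, 0 passed in edgeR or were at an unadjusted p under 0.05, and the most abundant, Vax2os and Six3os1, had 103 ± 9.84 and 102 ± 9.48 CPM, and 125 ± 7.27 and 123 ± 10.7 CPM.

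The rest of the factor network was measured with 5 further lists of 91 genes, of which 78 were tested. In edgeR 0 of these 78 were called, and 9 (7 higher, 2 lower), or 11.5%, had an unadjusted p under 0.05, against 5.27% of all tested genes. DESeq2 called 1, Esrrb, and limma 0. With no filter on low values edgeR called 2 of them higher, 1 photoreceptor factor and 1 gene of the SNAG and E-box list, and without knockdown 1 it called 1 photoreceptor factor higher. Their median log2 fold change was 0.02. Groups did not overlap for 6 of the 78 (7.69%), against 3.31% of all tested genes.

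All 14 further photoreceptor factors were tested, and 6 had positive and 8 negative fold changes (median -0.02, and 0.01 without control 2). The most abundant, Mef2d, a MADS-box factor that works with Crx, had 469 ± 19.8 and 461 ± 23.9 CPM, and Samd11, a rod repressor component, had 461 ± 42.7 and 448 ± 9.35 CPM. Esrrb, an orphan nuclear receptor of rods chosen after its values were seen, stood at 341 ± 9.22 CPM in the controls against 404 ± 9.55 CPM in the knockdown without overlap, a log2 fold change of 0.24 (SE 0.05) with an edgeR adjusted p of 0.127.

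Among 14 bipolar factors, all tested, 10 had positive and 4 negative fold changes (median 0.08), and 0 had an unadjusted p under 0.05. The basic helix-loop-helix factor Neurod4 had 288 ± 13.3 and 295 ± 12.9 CPM. Of 27 amacrine, horizontal and ganglion cell factors 23 were tested. Fold changes were positive for 8 and negative for 15 (median -0.04, and from -0.08 without knockdown 4 to -0.02 without control 2). Meis2 had 126 ± 2.16 and 126 ± 1.997 CPM, and Tfap2b, an amacrine factor, 239 ± 7.30 and 240.4 ± 24.9 CPM. Among 15 tested of 18 progenitor and Müller glia factors the median was 0.02, and -0.01 without knockdown 1 and 0.06 without knockdown 2, with Six3 at 104 ± 7.37 and 98.3 ± 6.69 CPM and Six6 at 74.3 ± 1.99 and 72.9 ± 2.30 CPM. Ptf1a, Foxn4, Dlx1, Dlx2, Pax2, Atoh7 and Olig2, which act in progenitors or early precursors, did not reach the filter.

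The closest functional relatives of the Scratch genes, 18 genes of SNAG-motif and E-box factors and their corepressors, had 0 calls in edgeR. Of the 12 tested, 11 had positive fold changes and 1 was negative, Kdm1a (median 0.05). The histone deacetylase gene Hdac2 had 111 ± 10.7 and 113 ± 5.49 CPM, and Tcf4, an E protein gene, had 150.1 ± 3.47 and 155 ± 5.87 CPM. Insm1, a SNAG-motif zinc finger gene chosen after its values were seen, stood at 52.9 ± 4.19 and 63.4 ± 1.82 CPM without overlap, a log2 fold change of 0.26 (SE 0.06) with an edgeR adjusted p of 0.231. Snai1, Snai2, Snai3, Gfi1, Gfi1b and Insm2 were below the filter, with Gfi1b at 0 counts in all libraries.

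Genes downstream of the photoreceptor and bipolar factors were not called either. Of 58 rod, cone and bipolar genes, all tested, edgeR called 0, with 5 (8.62%) at an unadjusted p under 0.05 against 5.27% of all tested genes, and DESeq2 and limma called 0. Fold changes were negative for 24 of 26 rod genes, with a median of -0.07, and -0.04 without knockdown 3. At an unadjusted p under 0.05 in edgeR, 3 rod genes were lower with all libraries and 1 with the Ddx3y covariate. There were 9 without knockdown 1, 1 without control 3 and 0 without knockdown 3 or control 4. Their summed level was 61832 to 64012 TPM in the controls and 57490 to 61804 TPM in the knockdown, lowest in knockdown 3. Gnat1, rod transducin, had 7539 ± 221 and 6833 ± 492 CPM, a log2 fold change of -0.14 (SE 0.06) with an edgeR adjusted p of 0.907. The 12 cone genes had a median of -0.06, and -0.01 without knockdown 1 or without control 4, with the short-wave opsin gene Opn1sw at 338 ± 8.26 and 307 ± 26.6 CPM and Gnb3 at 244 ± 10.8 and 277 ± 80.5 CPM. Bipolar genes were positive in 19 of 20 cases with a median of 0.03, and in 14 of 20 without knockdown 2 (median 0.02) or knockdown 3 (median 0.03). Without knockdown 1 or control 4 the median was 0.06. Pcp2 had 91.9 ± 5.51 and 95.7 ± 5.39 CPM and Lrtm1 250.3 ± 12.9 and 253 ± 11.8 CPM.

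Most markers of amacrine and ganglion cells, the inner neurons in which Pax6 stays active, had negative fold changes: 17 of 18 amacrine genes and 14 of 18 ganglion cell genes. Of the 36 amacrine and ganglion cell genes, edgeR called 1, Slc17a6 (log2 fold change -0.44, SE 0.07, adjusted p = 0.0465), which fell. In the same fit 12 (33.3%) were lower at an unadjusted p under 0.05 and none higher, while 2.66% of all tested genes were lower at that threshold. At that threshold 5 amacrine and 7 ganglion cell genes were lower with all libraries. Without control 1, or without control 3, they were 1 and 5. Groups did not overlap for 7 of the 36 (19.4%), against 3.31% of all tested genes. The median was -0.13 for the 18 ganglion cell genes and -0.09 for the 18 amacrine genes, and -0.08 and -0.03 without knockdown 1. Without knockdown 1 and knockdown 3 together, a setting chosen after seeing the data, 8 of 18 amacrine genes were negative in place of 17. These libraries, like control 1, had 0 Ddx3y counts. With the Ddx3y covariate in edgeR, 13 of 18 amacrine genes were negative. At an unadjusted p under 0.05, 2 amacrine and 6 ganglion cell genes were then lower. The call of Slc17a6 was lost without control 1, 2 or 4 and without knockdown 3 or 4. Calb2 had 441 ± 16.9 and 400.4 ± 34.1 CPM. The amacrine genes summed to 1441, 1782, 1706 and 1730 TPM in the knockdown libraries, against 1766 to 1835 TPM in the controls. The ganglion cell genes summed to 1764, 2208, 2067 and 2113 TPM there, against 2174 to 2279 TPM in the controls. Scrt2 and Slc17a6 were each below every control in all 4 knockdown libraries. The part of amacrine and ganglion cell genes in the lower Scrt2 level was not tested.

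Non-neuronal lists differed in median. Müller glia genes had a median log2 fold change of 0.01, and -0.04 without knockdown 1 (Glul at 2828 ± 159 and 2733 ± 185 CPM, Apoe at 890.2 ± 37.5 and 900 ± 101 CPM), and microglia and macrophage genes of -0.04, and from -0.11 without knockdown 1 to 0.01 without control 4 (C1qa at 11.5 ± 2.55 and 9.38 ± 2.44 CPM). In the pigment epithelium, which also depends on Otx2, 5 tested genes were positive and 7 negative (median -0.15, and from -0.24 without control 1 to -0.07 without control 2). Ttr had 96.6 ± 8.93 and 82.7 ± 19.2 CPM and the pigment gene Dct 44.4 ± 5.30 and 53.8 ± 6.86 CPM, and the summed level of the list was 339 to 404 TPM in the controls and 319 to 415 TPM in the knockdown. Endothelial genes had a median of -0.20, with 10 of 12 negative. At an unadjusted p under 0.05, 7 of the 12 were lower, against 2.66% of all tested genes, and 2 without control 1. The most abundant, Slc2a1 at 274 ± 9.70 and 277 ± 17.6 CPM and Kdr at 264 ± 25.1 and 268 ± 11.8 CPM, were the 2 positive ones, while Cldn5, a tight junction gene chosen after its values were seen, had 35.1 ± 1.34 and 29.9 ± 2.56 CPM (log2 fold change -0.23). In these 4 lists edgeR called 0 genes. DESeq2 called 1 endothelial gene lower, as did edgeR with no filter, without control 3, and without control 3 and knockdown 3 together. Lens genes had 7 called, all higher; the 4 with the smallest p-values were Cryaa, Cryge, Crygd and Crygb, which had 0.0240 to 0.145 CPM in the controls against 4.41 to 16.2 CPM in the knockdown.

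**Figure D5:**
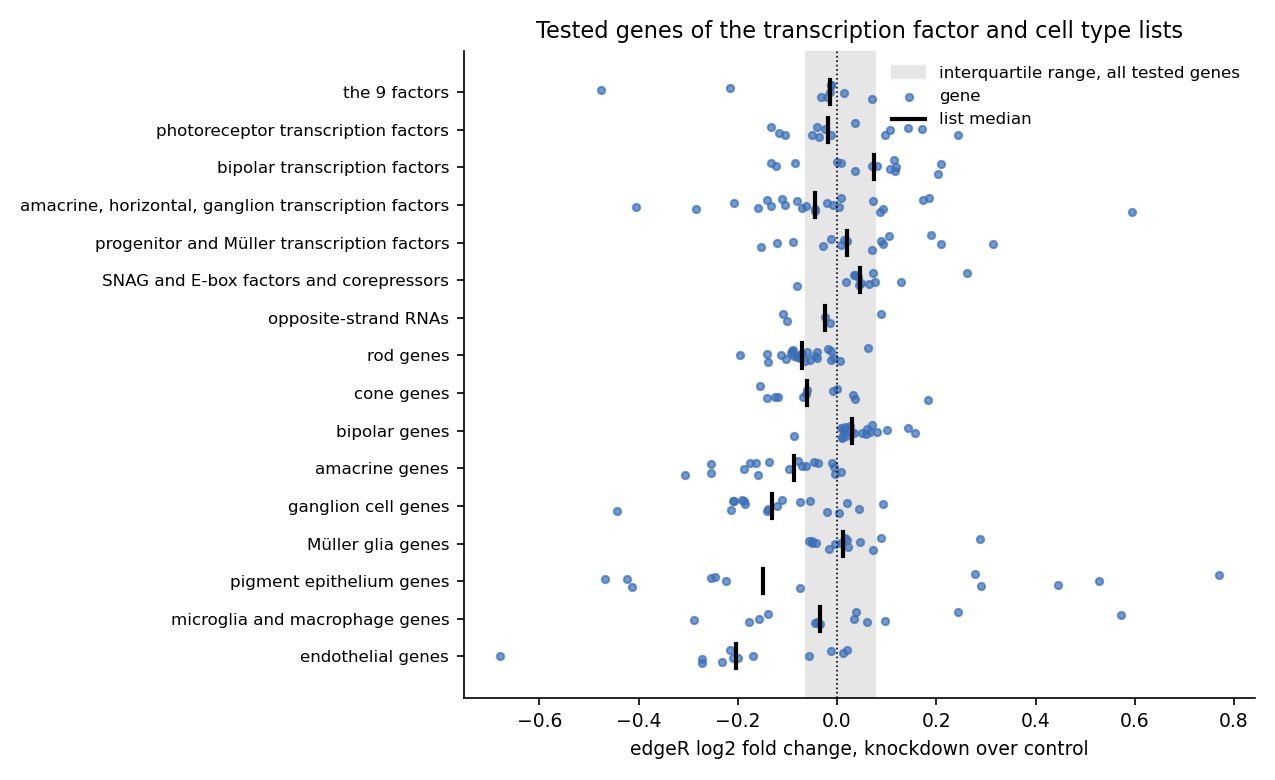
edgeR log2 fold changes, knockdown over control, of the tested genes of each list; points are genes, black lines list medians, and the grey band the interquartile range of all tested genes (-0.06 to 0.08). Lens genes (median 5.91) lie off this scale, and 0 corneal genes were tested. Scrt2 and Scrt1 are the 2 lowest points of the top row, and the medians of ganglion cell, amacrine, rod, pigment epithelium and endothelial genes lie below the band.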

How the data were processed

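RNA was measured in 8 retinal libraries, 4 per group. Per the labels' protocols, TRIzol RNA was read on a NovaSeq X Plus in pairs of 150 bases. The submitters' processing notes list Bowtie 0.12.2 and the build mm9 without saying what each was used for. Although called TPM, the authors' deposited values are estimated counts for each gene: their library totals are unequal and far above 1000000, and 90.6% to 91.9% of entries are whole. The counting tool is not given in the sources used here. The authors' group means were not used.

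Counts were rounded. TPM was computed from unrounded counts and the deposited gene lengths. Genes with at least 1 TPM in at least 4 libraries were compared with edgeR 4.0.16 (quasi-likelihood test, TMM scaling, Benjamini-Hochberg adjustment over all 16118 genes) in R 4.3.3; the test was tried on simulated data first. Each SE was derived from the log2 fold change and its F statistic. Alternatives used DESeq2 1.42.0, limma 3.58.1, other scalings and filters, a Ddx3y covariate, a replicate block and each library left out. Positions are from GENCODE M21 on GRCm38, which held 97.9% of tested genes. The floor of 3 counts covers counting error only.

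Members and lists were chosen with earlier results of these data known. By rule, the text names all members, the called genes of each list (at most 4, otherwise the 2 most abundant), the nearest profiles and the neighbours of Scrt2. Some genes that the rule takes are not reported here. Krt15 and Trp63, which the rule takes for the corneal list, had 0.502 and 0.413 TPM on average. Genes outside the rule are marked as chosen after their values were seen, or named to account for a count or a shared base.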

Additional observations from a re-analysis of the deposited data

Results flagged for a closer look

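The Pax6 level of control 2, at 332 CPM, stood apart from those of controls 1, 3 and 4, which lay within 305 to 307 CPM: the gap was 0.912 of the whole range of the 4 values, above Dixon's 95% critical value. It was the only such value in 18 groups of 4 libraries, for 9 genes in 2 groups, where chance gives about 1 in 20.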

How the results depend on the processing

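The log2 fold changes of Otx2, Scrt1 and Scrt2 kept their direction under all 20 alternatives. Scrt2 ran from -0.51 to -0.38, Scrt1 from -0.27 to -0.13 and Otx2 from 0.04 to 0.09. Scrt2 was chosen from this comparison, and the alternatives refit the same libraries. Its kept direction and its calls therefore carry no support of their own. The other 6 members, whose fold changes were between -0.03 and 0.01, changed sign under 1 to 4 alternatives each. Scrt2 was called by DESeq2 and with no filter on low values (1 member each, among 45 and 157 called genes) and by no other alternative, leave-one-out fits included. Genes called over all tested genes, 10 in edgeR (7 higher, 3 lower), were 45 in DESeq2 (16 higher, 29 lower), 157 with no filter (64 and 93), 46 without control 3 and knockdown 3 together (39 lower), 1 with a mean TPM of at least 5 (0 higher, 1 lower) and 0 with a robust dispersion or with limma on log2(TPM + 1), where 833 and 804 genes had an unadjusted p under 0.05. With limma on log2(TPM + 0.1) and with the Ddx3y covariate 1 gene was lower. Leaving out 1 library gave 0 to 58 genes (0 to 9 higher, 0 to 52 lower); it was 0 without control 1 or control 2, 1 without control 4 and 58 without control 3. Called genes of the lists, 7 higher and 1 lower, were 11 and 2 in DESeq2, 14 and 2 with no filter, and 0 and 0 with limma on log2(TPM + 1), a robust dispersion or a mean TPM of at least 5. The lower call was also lost (0) with limma on log2(TPM + 0.1), the Ddx3y covariate, the replicate block and without knockdown 1 and knockdown 3 together. Leaving out 1 library gave 0 to 9 higher and 0 to 2 lower list genes. The cause of these differences was not tested. Libraries of the same replicate number did not deviate together (correlations of -0.16 to 0.01). Those of different number gave correlations of -0.15 to 0.17, so these few values cannot decide whether the numbers pair libraries. With the replicate block 11 genes were called and Scrt2 had a log2 fold change of -0.48. At 201 to 425 counts a library, Scrt2 is the member for which depth limits precision most.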
